A study of Mus musculus with 8 samples.

Results

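The genes described here are those of the mouse major histocompatibility complex (MHC) class II pathway: the classical chains H2-Aa, H2-Ab1 and H2-Eb1, the invariant chain Cd74, the peptide-loading genes H2-DMa, H2-DMb1, H2-DMb2 and H2-Oa, and the transactivator Ciita. They were chosen by gene symbol, and 8 of the 9 were found among the 15465 genes of the deposited table. Ciita was not analysed here. RNA sequencing was performed on 4 samples transfected with an siRNA against Suclg2 (si-Suclg2) and 4 samples transfected with a control siRNA (si-nc). Suclg2 encodes one of the chains of mitochondrial succinyl-CoA ligase; the series title places it in the tolerogenic function of regulatory dendritic cells. All samples were of wild-type genotype and strain C57/BL6: marrow cells were grown for 6 days in GM-CSF and IL-4, given LPS for 24 hours, selected on CD11c beads and kept for 9 days on stroma cells of the spleen before transfection. The siRNA sequences, the time from transfection to collection, and whether the replicates were separate cultures or animals are not stated in the labels, so p-values measure only the spread between these samples, which may be technical.

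MHC class II molecules present peptides from the endocytic pathway to CD4 T cells. The alpha and beta chains assemble in the endoplasmic reticulum with the invariant chain, which blocks the groove and directs the complex to endosomes, where proteases cut it down to a fragment called CLIP. H2-DM, a dimer of an alpha chain (H2-DMa) and a beta chain (H2-DMb1 or H2-DMb2), exchanges CLIP for peptide, and H2-O, whose alpha chain is H2-Oa, restrains H2-DM. Transcription of these genes depends on CIITA, which binds no DNA itself and docks on RFX, CREB and NF-Y factors at the X and Y boxes of their promoters. Mice of the C57BL/6 background carry a defective H2-Ea gene, so the H2-Eb1 product has no alpha chain partner at the surface.

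Of the 8 genes, 7 lie on chromosome 17 of GRCm38 within 224.3 kb (GENCODE M21 annotation, all protein-coding). In order along the chromosome, H2-Oa lies at chr17:34092340-34095234, H2-DMa at chr17:34119541-34139101, H2-DMb2 at chr17:34143307-34151555, H2-DMb1 at chr17:34153072-34160230 and H2-Ab1 at chr17:34257689-34269419, all on the plus strand. H2-Aa follows on the minus strand at chr17:34282744-34287823, and H2-Eb1 on the plus strand at chr17:34305867-34316674. Cd74 lies on another chromosome.

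The promoter windows of RefSeq (assembly GRCm38.p6, 250 bases before to 50 bases after the start site) held 7 windows of 6 of the genes. These were searched on both strands for the X box core AGNNACNGA (N is any base), for the Y box ATTGG, read on the other strand as CCAAT, and for an X box core followed on the same strand by ATTGG that begins 15 to 40 bases after it. The X box core and Y box each occur widely, in 17.7% and 37.4% of 32851 windows of the same length, whereas the spaced pair occurs in 0.31% of them. Of the 7 windows, 3 held the X box core (H2-Oa, H2-DMb1 and H2-Eb1), 6 the Y box and 2 the spaced pair. The windows of H2-Eb1 (chr17:34305617-34305916, plus strand) and H2-DMb1 (chr17:34152941-34153240, plus strand) each held the pair. In H2-Eb1 the X box core AGCAACTGA begins 92 bases before the start site and ATTGG begins 33 bases further on, and in H2-DMb1 the X box core AGTAACTGA begins 95 bases before it and ATTGG 34 bases further on. The windows of H2-Aa (chr17:34287774-34288073, minus strand) and H2-DMb2 (chr17:34144999-34145298, plus strand) held ATTGG but not these letters of the X box core. These 4 windows are shown because they pair a chain gene that fell with a loading gene that did not pass the test, once with the spaced pair and once without it. They are written 5′ to 3′ with every match to either motif in capitals.
H2-Eb1: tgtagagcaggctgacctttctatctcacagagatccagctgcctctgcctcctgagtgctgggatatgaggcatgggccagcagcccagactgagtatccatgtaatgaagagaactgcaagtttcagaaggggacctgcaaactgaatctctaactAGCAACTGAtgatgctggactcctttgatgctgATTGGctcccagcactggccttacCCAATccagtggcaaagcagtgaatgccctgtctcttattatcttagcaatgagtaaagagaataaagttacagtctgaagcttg
H2-DMb1: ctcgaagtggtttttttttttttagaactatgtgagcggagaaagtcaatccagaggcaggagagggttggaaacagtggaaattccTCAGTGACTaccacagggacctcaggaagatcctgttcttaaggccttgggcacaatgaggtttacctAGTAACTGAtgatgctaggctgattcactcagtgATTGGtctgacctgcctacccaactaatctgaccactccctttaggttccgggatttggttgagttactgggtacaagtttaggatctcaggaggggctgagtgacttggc
H2-Aa: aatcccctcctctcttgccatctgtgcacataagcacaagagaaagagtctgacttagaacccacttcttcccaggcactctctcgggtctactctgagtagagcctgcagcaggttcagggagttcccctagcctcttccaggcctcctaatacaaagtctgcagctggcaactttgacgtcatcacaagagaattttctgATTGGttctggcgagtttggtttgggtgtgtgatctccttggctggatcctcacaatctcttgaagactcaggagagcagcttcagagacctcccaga
H2-DMb2: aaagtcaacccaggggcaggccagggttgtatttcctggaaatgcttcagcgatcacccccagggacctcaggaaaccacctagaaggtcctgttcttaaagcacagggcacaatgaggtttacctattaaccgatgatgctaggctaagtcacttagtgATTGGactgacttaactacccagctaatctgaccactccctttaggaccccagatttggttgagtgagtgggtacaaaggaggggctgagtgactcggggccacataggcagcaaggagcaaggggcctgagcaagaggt

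The siRNA target Suclg2 was at 2.23, 2.30, 2.76 and 2.61 FPKM in si-Suclg2 samples 1 to 4, against 4.68, 4.69, 4.56 and 4.43 FPKM in si-nc samples 1 to 4. FPKM (fragments per kilobase of transcript, scaled to library size) is the unit inferred for the deposited values. Of the si-nc mean, 53.9% remained in all samples, 48.4% in numbers 1 and 2 and 59.7% in numbers 3 and 4. Summed FPKM per sample lay between 506242 and 539290, and 9903 to 10177 genes reached 1 FPKM; depth is unknown. Macrophage markers were abundant in these samples, which are labelled as dendritic cells. The summed FPKM of 10 of 10 macrophage markers was 22190 to 26700 in si-Suclg2 samples, against 27620 to 34720 in si-nc samples. Its largest parts were Lyz2 (mean 7455 FPKM with si-Suclg2 and 10380 FPKM with si-nc) and Apoe (6433 and 9883 FPKM). Single macrophage markers went both ways, as given below. For 7 of 10 conventional dendritic cell markers with values the sum was 22.5 to 24.8 in si-Suclg2 samples, against 35.6 to 44.6 in si-nc samples. Itgax was the largest part of that sum, at a mean of 12.6 FPKM with si-Suclg2 and 20.2 FPKM with si-nc. The defining markers Flt3 (at most 0.14 FPKM), Clec9a (at most 0.17 FPKM) and Zbtb46 (at most 0.45 FPKM) were near 0. The B cell markers Cd79a and Ms4a1 did not exceed 0.11 FPKM. In bulk samples, fewer cells of a type and less RNA per cell cannot be told apart.

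The classical chain genes H2-Aa and H2-Eb1 and the invariant chain gene Cd74 fell with si-Suclg2, each to between 51.3% and 57.3% of its si-nc mean. H2-Ab1, the partner chain of H2-Aa, was at 68.5% of its si-nc mean and did not pass the test over all samples. The loading genes H2-DMa, H2-DMb1, H2-DMb2 and H2-Oa did not pass the test in either direction. By limma on log2(FPKM + 1), with p adjusted over 10176 genes and a threshold of 0.05, 3 of the 8 genes were lower, 0 were higher (0 also at an unadjusted p under 0.05) and 5 did not pass; among all genes 14.9% were lower and 12% higher. With trimmed-mean scaling, 1186 genes were lower and 1542 higher over the whole table, against 1519 and 1221 here, and the 3 class II calls held. The median log2 fold change was -0.28 over the 8 genes and -0.03 over all genes tested. With the replicate number as a block, 0 of the 8 genes passed as higher, beside 18% of all genes. In that fit 2 of the 8 were higher at an unadjusted p under 0.05. The limma adjusted p there was 0.0595 for H2-DMb2 and 0.0894 for H2-Oa.

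H2-Aa encodes the alpha chain of the I-A molecule, the only classical class II molecule that C57BL/6 mice display. It was at 81.1, 84.35, 137.8 and 134.9 FPKM in si-Suclg2 samples 1 to 4, against 179.8, 191.45, 241.8 and 229.0 FPKM in si-nc samples 1 to 4. Every si-Suclg2 sample lay below every si-nc sample, and in both groups numbers 3 and 4 were above numbers 1 and 2. The means were 109.5 ± 31.0 FPKM with si-Suclg2 and 210.5 ± 29.6 FPKM with si-nc (SD, n = 4 each). For H2-Aa a log2 fold change of -0.97 ± 0.186 (SE) was found (limma adjusted p = 0.00431), the 56th lowest of the 10176 genes.

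H2-Eb1 encodes the beta chain of the I-E molecule. Its level was 23.95, 24.96, 42.2 and 44.7 FPKM in si-Suclg2 samples 1 to 4, against 54.8, 58.3, 74.9 and 77.0 FPKM in si-nc samples 1 to 4. The groups did not overlap, and numbers 3 and 4 were again the higher ones in each group. The mean of 33.96 ± 11.03 FPKM with si-Suclg2, against 66.3 ± 11.3 FPKM with si-nc (SD, n = 4 each), left 51.3%. Its log2 fold change of -0.98 ± 0.212 (SE; limma adjusted p = 0.00783) was the 52nd lowest of all genes tested.

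H2-Ab1 encodes the beta chain of I-A. It was at 77.4, 74.8, 131.50 and 131.39 FPKM in si-Suclg2 samples 1 to 4, against 131.55, 137.0, 163.2 and 173.9 FPKM in si-nc samples 1 to 4. The groups just failed to overlap, since si-Suclg2 samples 3 and 4 lay within 0.2 FPKM of si-nc sample 1. Its log2 fold change of -0.58 ± 0.198 (SE) came with a limma adjusted p of 0.0546. With the replicate number as a block H2-Ab1 passed (limma adjusted p = 0.00102), which brought the genes called lower to 4 of 8, beside 22.5% of all genes in that fit. It passed likewise without si-Suclg2 sample 3 (limma adjusted p = 0.0297) or si-Suclg2 sample 4 (0.0312), with a common sum (0.0323) and with quantile normalization (0.0303).

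Cd74, the invariant chain gene, was the most abundant of the 8 in every sample. It was at 466.5, 443.7, 564.5 and 548.5 FPKM in si-Suclg2 samples 1 to 4, against 810.0, 842.9, 933.2 and 946.4 FPKM in si-nc samples 1 to 4. The highest si-Suclg2 sample stood well below the lowest si-nc sample. The means were 505.8 ± 59.6 FPKM with si-Suclg2 and 883.1 ± 67.0 FPKM with si-nc (SD, n = 4 each), so that 57.3% remained (log2 fold change -0.81 ± 0.089 SE, limma adjusted p = 0.000206).

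In Cd74, H2-Aa, H2-Ab1 and H2-Eb1 all si-Suclg2 samples were below all si-nc samples, which also held for 16.4% of the 10176 genes. For each of these 4 genes an exact permutation test, two-sided over 70 assignments, returned p = 0.0286, below which 4 against 4 samples cannot go. With numbers 1 and 2 averaged into 1 replicate, and numbers 3 and 4 into another, 0 of the 8 genes passed (3 lower and 0 higher at an unadjusted p under 0.05), with limma adjusted p of 0.0521 for Cd74, 0.120 for H2-Aa and 0.146 for H2-Eb1. In that fit only 149 of all 10176 genes passed as lower and 130 as higher, against 1519 and 1221 with all samples as replicates. Most calls over the whole table were thus lost as well.

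H2-DMa, the alpha chain of the peptide exchanger, was at 42.5, 39.98, 49.7 and 48.95 FPKM in si-Suclg2 samples 1 to 4, against 39.3, 40.6, 46.2 and 51.1 FPKM in si-nc samples 1 to 4. The groups overlapped over nearly their whole range, with a log2 fold change of 0.03 ± 0.096 (SE, limma adjusted p = 0.840). H2-DMb1, its main beta chain here, was at 70.3, 66.35, 78.6 and 81.1 FPKM in si-Suclg2 samples 1 to 4, against 67.3, 69.1, 73.1 and 73.9 FPKM in si-nc samples 1 to 4. It too overlapped between groups, with a log2 fold change of 0.06 ± 0.067 (SE, limma adjusted p = 0.565).

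The second beta chain gene, H2-DMb2, was much lower than H2-DMb1, at 2.11, 2.29, 3.40 and 2.83 FPKM in si-Suclg2 samples 1 to 4, against 1.68, 1.73, 3.10 and 2.57 FPKM in si-nc samples 1 to 4. In both groups numbers 3 and 4 were above numbers 1 and 2, and the groups overlapped (log2 fold change 0.17 ± 0.158 SE, limma adjusted p = 0.473). Transcripts of H2-DMb1 and H2-DMb2 (1404 and 1483 bases) were identical at 77.8% of aligned bases, and 25.2% of the 50-base windows of H2-DMb2 occur in H2-DMb1, so reads could be shared and the split between them is uncertain. H2-Oa, the alpha chain of the H2-DM inhibitor, was at 2.95, 2.42, 3.47 and 3.08 FPKM in si-Suclg2 samples 1 to 4, against 2.15, 2.68, 2.79 and 2.20 FPKM in si-nc samples 1 to 4. The groups overlapped, and H2-Oa had a log2 fold change of 0.20 ± 0.098 (SE, limma adjusted p = 0.162). The two-sided exact permutation p was 0.714 for H2-DMa, 0.429 for H2-DMb1, 0.429 for H2-DMb2 and 0.114 for H2-Oa.

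**Figure D1:**
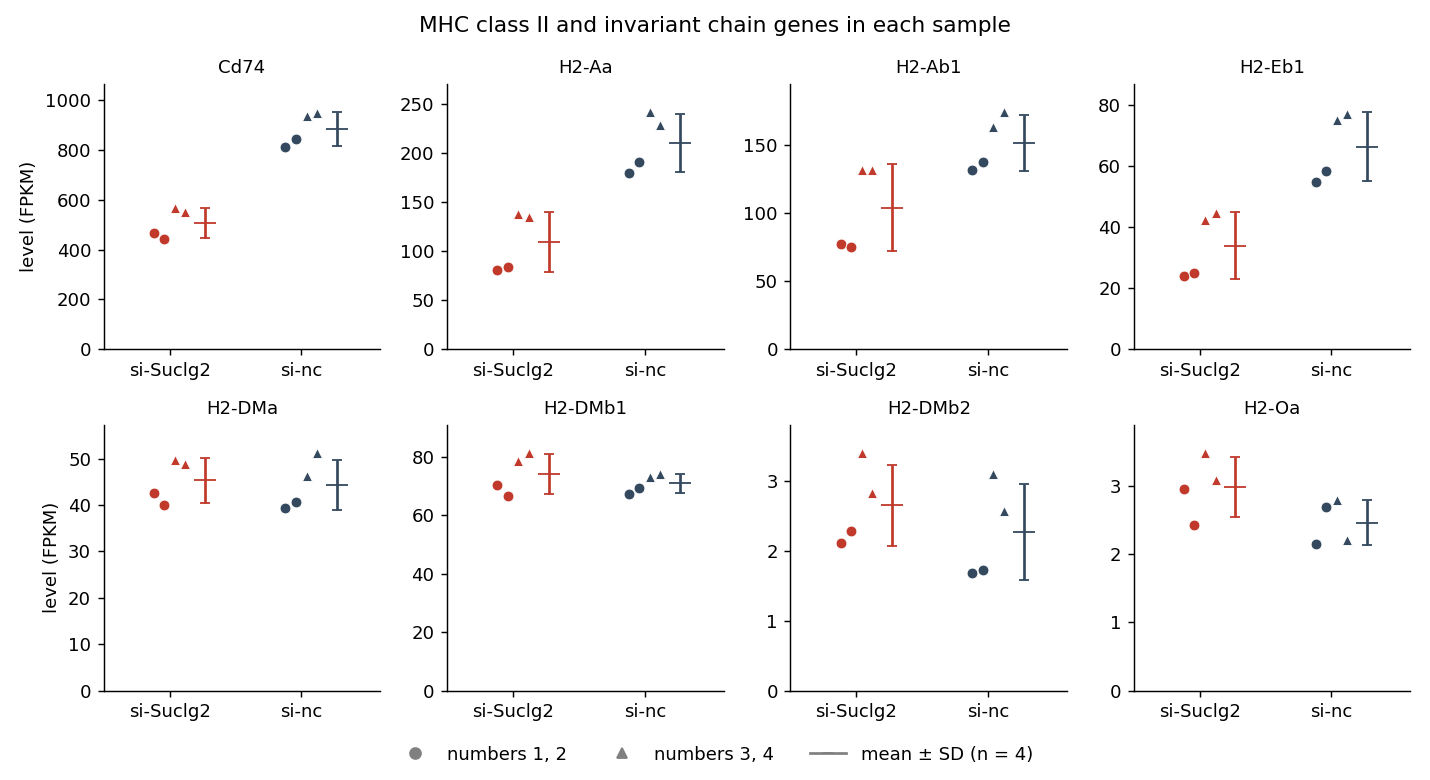
FPKM of each of the 8 class II pathway genes in the 4 si-Suclg2 and the 4 si-nc samples, one panel a gene, with circles for numbers 1 and 2, triangles for numbers 3 and 4, and bars for the group mean and SD. Cd74, H2-Aa and H2-Eb1 do not overlap between groups, H2-Ab1 only just separates, and the H2-DM and H2-O genes overlap.

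Between the groups, the order of the levels changed at H2-Eb1. Cd74, H2-Aa and H2-Ab1 ranked 1, 2 and 3 among the 8 genes in all samples. H2-Eb1 ranked 6 in each si-Suclg2 sample, below H2-DMb1 and H2-DMa, whereas it ranked 5, 5, 4 and 4 in si-nc samples 1 to 4, above H2-DMa in each and above H2-DMb1 in numbers 3 and 4. H2-Oa ranked above H2-DMb2 except in si-nc samples 3 and 4. Together the 8 genes made up 0.150%, 0.143%, 0.188% and 0.185% of the summed FPKM in si-Suclg2 samples 1 to 4, against 0.254%, 0.263%, 0.298% and 0.292% in si-nc samples 1 to 4.

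In both groups the classical chains and Cd74 were at like levels in samples 1 and 2 and at higher, like levels in samples 3 and 4, and the labels do not say what the numbers stand for. Compared separately, Cd74, H2-Aa, H2-Ab1 and H2-Eb1 fell in numbers 1 and 2 (4 of 8, beside 16.7% of all genes lower) and fell in numbers 3 and 4 (4 of 8, beside 17.7%), with 2 samples a group in each and limma adjusted p of at most 0.000938. Cd74 kept 55.1% of its si-nc mean in numbers 1 and 2 and 59.2% in numbers 3 and 4. The classical chains kept less in numbers 1 and 2: H2-Aa 44.6% against 57.9% in numbers 3 and 4, H2-Eb1 43.2% against 57.2%, and H2-Ab1 56.7% against 78.0%.

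The difference between the 2 sets of numbers was itself tested as an interaction of siRNA with number pair across all genes. The log2 fold change was less negative in numbers 3 and 4 than in numbers 1 and 2 by 0.46 ± 0.062 for H2-Ab1 (SE; limma adjusted p = 0.0126), by 0.37 ± 0.065 for H2-Aa (0.0337) and by 0.39 ± 0.070 for H2-Eb1 (0.0389). These were 3 of the 8 genes, beside 0.609% of all genes that passed in this direction. For Cd74 the difference was 0.10 ± 0.058 (SE; limma adjusted p = 0.519), and it did not pass for H2-DMa, H2-DMb1, H2-DMb2 or H2-Oa (limma adjusted p = 0.487 to 0.936). For Suclg2 itself the interaction was 0.22 ± 0.099 (SE; limma unadjusted p = 0.0479, adjusted p = 0.410). It did not pass, and its direction was that of the classical chains. The division into these numbers was made with earlier results of these data known, so the interaction is not independent evidence.

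The interaction is on the log scale, whereas in FPKM the differences of H2-Aa, H2-Eb1 and Cd74 were close to equal in both sets of numbers. With si-Suclg2, H2-Aa fell by 102.9 FPKM in numbers 1 and 2 and fell by 99.1 FPKM in numbers 3 and 4. H2-Eb1 fell by 32.1 FPKM in numbers 1 and 2 and fell by 32.5 FPKM in numbers 3 and 4. Cd74 fell by 371.3 FPKM in numbers 1 and 2 and fell by 383.4 FPKM in numbers 3 and 4. H2-Ab1 differed on both scales: it fell by 58.2 FPKM in numbers 1 and 2 and fell by 37.1 FPKM in numbers 3 and 4. The classical chains were higher in numbers 3 and 4 than in numbers 1 and 2 by factors of 1.65 to 1.78 with si-Suclg2 and 1.26 to 1.34 with si-nc, while Cd74 was higher by 1.22 with si-Suclg2 and 1.14 with si-nc.

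**Figure D2:**
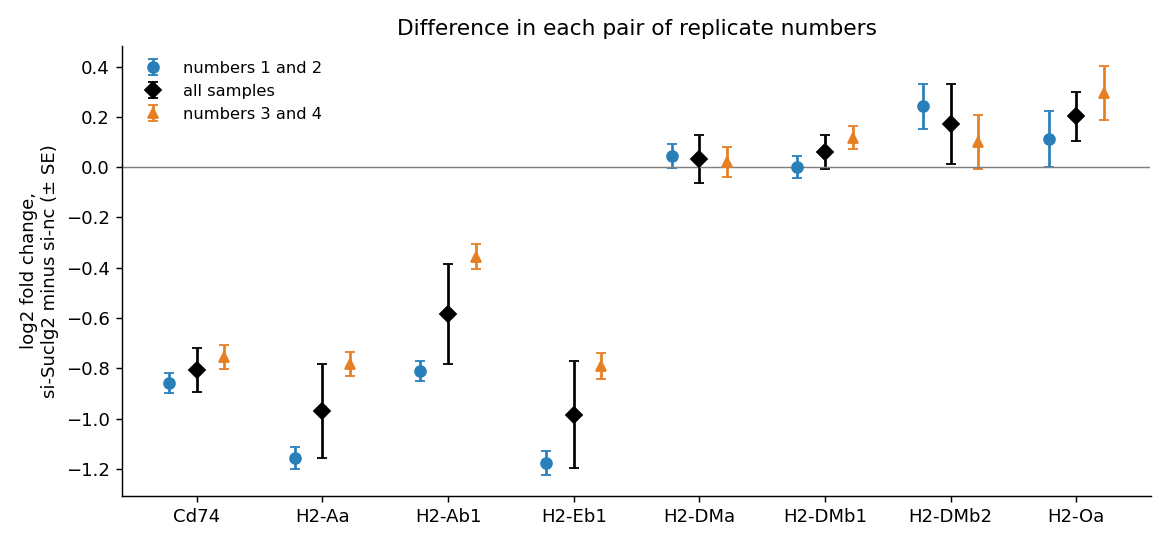
Log2 fold change (si-Suclg2 minus si-nc, on log2(FPKM + 1), with SE) of each of the 8 genes in numbers 1 and 2 (circles), all samples (diamonds) and numbers 3 and 4 (triangles). H2-Aa, H2-Ab1 and H2-Eb1 are further below 0 in numbers 1 and 2, Cd74 is at -0.86 in numbers 1 and 2 and -0.76 in numbers 3 and 4, and the loading genes lie near or above 0 in both.

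Ratios within a sample do not depend on a scaling factor of that sample, apart from the pseudocount in the log2 ratios, which weighs on low genes such as H2-DMb2 and H2-Oa. The log2 ratio of H2-DMa to the geometric mean of H2-Aa, H2-Ab1 and H2-Eb1 was -0.63 with si-Suclg2 and -1.51 with si-nc, a difference of 0.88. The corresponding difference was 0.91 for H2-DMb1, 1.02 for H2-DMb2 and 1.05 for H2-Oa. In each of these 4 ratios every si-Suclg2 sample was above every si-nc sample (two-sided exact permutation p = 0.0286 each, unadjusted, of 5 ratios tested). The 4 ratios share a denominator whose genes were each lower in every si-Suclg2 sample. Their separation therefore largely restates the fall of the classical chains and is not separate evidence. The Cd74 ratio differed by 0.04, with means of 2.82 ± 0.279 with si-Suclg2 and 2.78 ± 0.102 with si-nc (SD, n = 4 each; exact permutation p = 0.771), and the difference was 0.19 in numbers 1 and 2 and -0.11 in numbers 3 and 4. In FPKM, H2-DMb1 amounted to 0.385, 0.361, 0.252 and 0.261 of the summed classical chains in si-Suclg2 samples 1 to 4, against 0.184, 0.179, 0.152 and 0.154 in si-nc samples 1 to 4. The H2-DM share was highest in si-Suclg2 samples 1 and 2, where the sum of the classical chains was lowest, at 182.5 and 184.1 FPKM.

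The classical chains did not keep a fixed proportion to each other either, a description made after their values were seen and given with no test. The ratio of H2-Aa to H2-Ab1, alpha to beta chain of I-A, was 1.05, 1.13, 1.05 and 1.03 in si-Suclg2 samples 1 to 4, against 1.37, 1.40, 1.48 and 1.32 in si-nc samples 1 to 4. H2-Eb1 over H2-Ab1 was 0.326 ± 0.0137 with si-Suclg2 and 0.436 ± 0.0187 with si-nc (SD, n = 4 each). Both ratios separated the groups without overlap, and neither followed the division of the numbers within si-Suclg2. H2-Aa over H2-Eb1 was 3.26 ± 0.172 with si-Suclg2 and 3.19 ± 0.148 with si-nc (SD, n = 4 each), with overlapping samples. A ratio of 1 stands for equal levels per length of transcript.

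**Figure D3:**
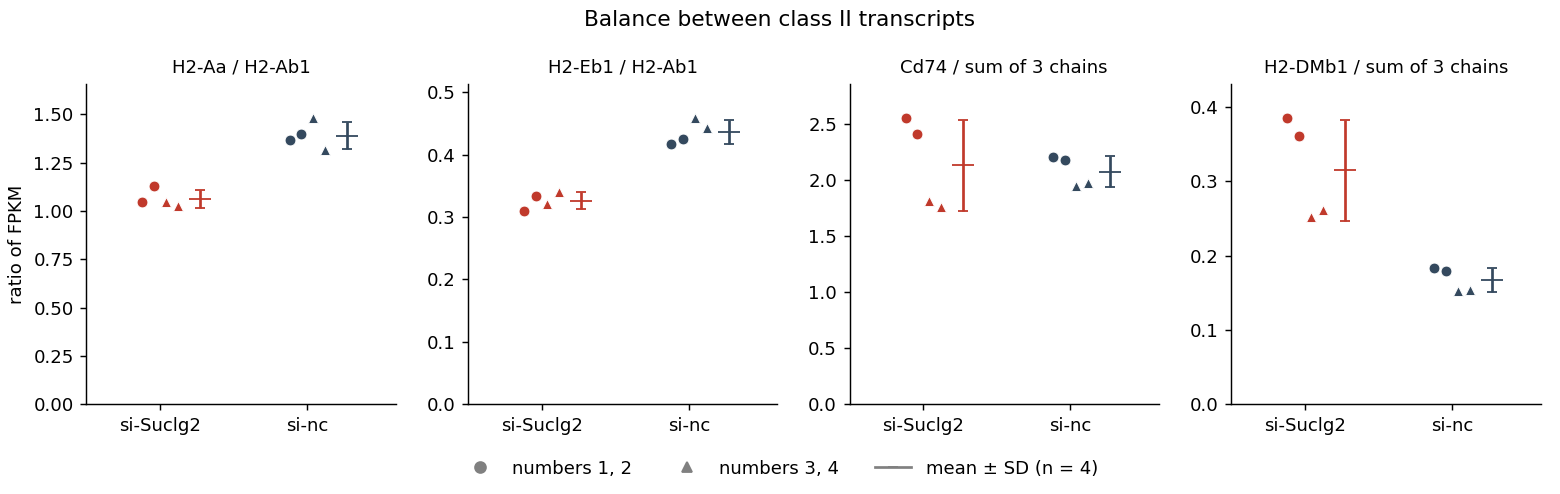
Ratios of FPKM in each si-Suclg2 and si-nc sample: H2-Aa over H2-Ab1, H2-Eb1 over H2-Ab1, and Cd74 and H2-DMb1 over the sum of H2-Aa, H2-Ab1 and H2-Eb1, with circles for numbers 1 and 2, triangles for numbers 3 and 4, and bars for the group mean and SD. The Cd74 ratio overlaps between groups, and the other ratios do not.

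On chromosome 17 the classical chain genes are set apart from the loading genes by genes of class I presentation, of which 0 passed as lower (limma; 0 also at an unadjusted p under 0.05). The segment from H2-Oa to H2-Eb1 held 13 genes with values, of which 5 outside the class II pathway were tested. Of these 5, 0 were lower and 2 higher, beside 14.9% of all genes lower and 12% higher, so 0 lower is near the share of all genes. Their log2 fold changes were 0.02 to 0.21. Tap2, a subunit of the peptide transporter of class I presentation, was at 87.8 ± 3.001 FPKM with si-Suclg2 and 75.7 ± 4.38 FPKM with si-nc (SD, n = 4 each; log2 fold change 0.21, limma adjusted p = 0.0120, and 0.0568 with a common sum). The immunoproteasome gene Psmb9 was at 200.7 ± 7.02 FPKM with si-Suclg2 and 179.8 ± 5.01 FPKM with si-nc (log2 fold change 0.16, limma adjusted p = 0.0203); it did not pass with quantile normalization (0.355) or without si-Suclg2 sample 3 (0.0586), si-Suclg2 sample 4 (0.0514) or si-nc sample 1 (0.0607). Tap1, Psmb8 and the bromodomain gene Brd2 did not pass (limma adjusted p = 0.269, 0.0518 and 0.762), Psmb8 passing with the replicate block (0.0232). The classical chain genes H2-Ab1 (which did not pass over all samples), H2-Aa and H2-Eb1 lie next to each other. H2-Ob before them was too low to test. The segment was cut at H2-Oa and H2-Eb1, so the place of the classical chains at its end follows from that choice.

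**Figure D4:**
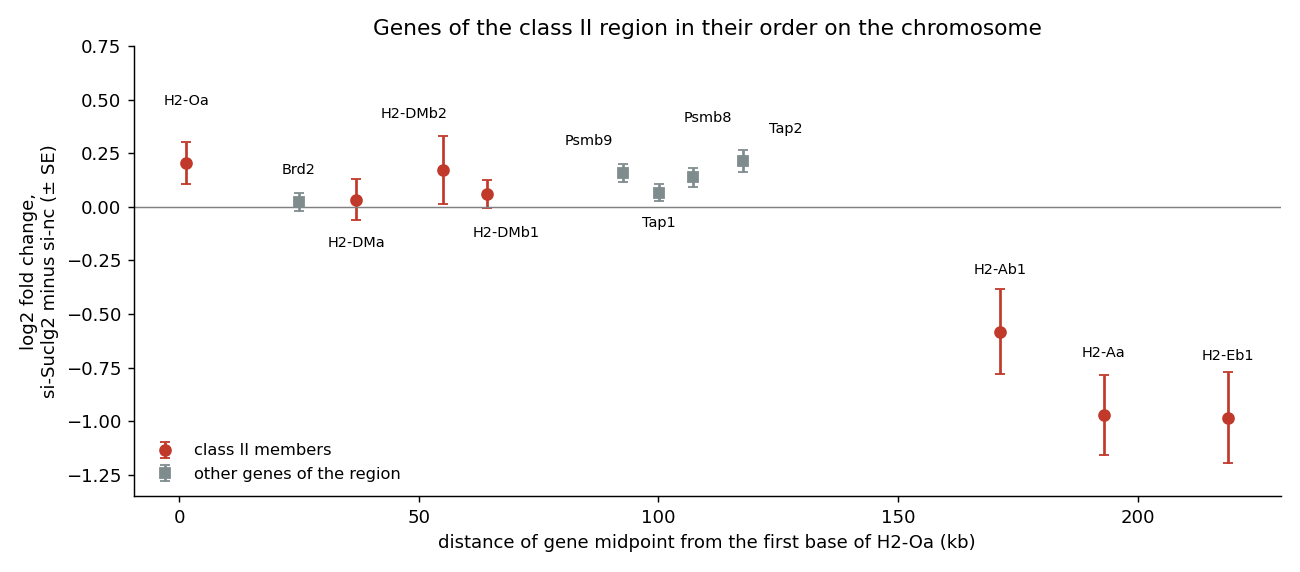
Log2 fold change (si-Suclg2 minus si-nc, with SE) of the 12 tested genes of the class II segment (circles for the class II genes, squares for the others) by distance of their midpoint from the start of H2-Oa in kb. The 3 classical chain genes at the right lie between -0.98 and -0.58, and all other genes lie between 0.02 and 0.21.

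The factors that bind class II promoters were measured as a group of 8, of which 0 rose (0 also at an unadjusted p under 0.05), 2 fell and 6 did not pass (limma; beside 12% of all genes higher and 14.9% lower; median log2 fold change -0.12, beside -0.03). When number pairs were averaged into replicates, 19 of the 24 genes chosen for naming outside the class II pathway that passed over all samples no longer did; Prdm1, Cd83, Il10, Adgre1 and Suclg2 still passed (limma adjusted p = 0.0182 to 0.0477). The 2 that fell were NF-Y subunits, which bind the Y box. Nfya was at 24.99 ± 0.994 FPKM with si-Suclg2 and 29.8 ± 0.446 FPKM with si-nc (SD, n = 4 each; log2 fold change -0.25, limma adjusted p = 0.00212). Nfyb was at 2.75 ± 0.175 FPKM with si-Suclg2 and 3.42 ± 0.255 FPKM with si-nc (limma adjusted p = 0.0255). The call of Nfyb was lost with quantile normalization (0.157), in numbers 1 and 2 alone (0.302), and without si-Suclg2 sample 3 (0.0662) or 4 (0.0632) or si-nc sample 3 (0.0624) or 4 (0.0696). Rfxap, an RFX subunit, was at 4.62 FPKM with si-Suclg2 and 5.37 FPKM with si-nc, and the third NF-Y subunit Nfyc at 20.9 FPKM with si-Suclg2 and 23.3 FPKM with si-nc (limma adjusted p = 0.127 and 0.223).

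Ciita itself was not analysed here, and of 13 genes listed as its regulators 12 were tested: 5 rose, 1 fell and 6 did not pass, beside 12% of all genes higher and 14.9% lower (median 0.11). With the replicate block 6 rose, beside 18% of all genes higher. Prdm1, which encodes the repressor Blimp-1, fell to 2.62 ± 0.280 FPKM with si-Suclg2, against 4.85 ± 0.441 FPKM with si-nc (SD, n = 4 each; log2 fold change -0.69, limma adjusted p = 0.000241). Socs1, an inhibitor of interferon-gamma signalling, rose to 23.9 ± 1.05 FPKM with si-Suclg2, against 15.4 ± 1.54 FPKM with si-nc (log2 fold change 0.60, limma adjusted p = 0.000253). Irf2, which binds an interferon-responsive Ciita promoter, was at 85.2 ± 4.87 FPKM with si-Suclg2 and 69.8 ± 5.48 FPKM with si-nc (log2 fold change 0.29, limma adjusted p = 0.00971). The named genes moved in mixed directions by role, with a repressor lower, an inhibitor higher and an activator higher. The receptor chain Ifngr2 was at 134.9 FPKM with si-Suclg2 and 123.8 FPKM with si-nc, and Usf1 at 31.9 FPKM with si-Suclg2 and 30.5 FPKM with si-nc (limma adjusted p = 0.303 and 0.375); Ifngr2 passed with the replicate block (0.0239).

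Of 10 coactivators and chromatin partners of CIITA, 1 rose, 0 fell (0 also at an unadjusted p under 0.05) and 9 did not pass, beside 12% of all genes higher and 14.9% lower (median 0.04). With the replicate block 2 rose, beside 18% of all genes, the second being the chromatin remodeller Smarca4, at 32.7 FPKM with si-Suclg2 and 29.8 FPKM with si-nc (limma adjusted p = 0.272, and 0.0319 with the block). Hdac1, a histone deacetylase that opposes CIITA activity, was at 33.7 ± 2.55 FPKM with si-Suclg2 and 27.4 ± 0.908 FPKM with si-nc (SD, n = 4 each; log2 fold change 0.29, limma adjusted p = 0.00536). The acetyltransferase Kat2b was at 11.4 FPKM with si-Suclg2 and 10.4 FPKM with si-nc, and the methyltransferase Carm1 at 10.4 FPKM with si-Suclg2 and 11.3 FPKM with si-nc (limma adjusted p = 0.128 and 0.209).

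Of 10 endosomal proteases and other processing genes, 2 were higher, 4 lower and 4 did not pass, beside 12% of all genes higher and 14.9% lower (median -0.11). With the replicate block 5 were lower, beside 22.5% of all genes. The cathepsin genes Ctsb, Ctsd and Ctsz fell by 0.34, 0.28 and 0.23 on the log2 scale (limma adjusted p = 0.0041, 0.00527 and 0.00611). Ctsb was at 7516 ± 174 FPKM with si-Suclg2 and 9542 ± 410 FPKM with si-nc (SD, n = 4 each), far above any class II gene, and its call was lost with quantile normalization (log2 fold change -0.02, adjusted p = 0.777) and with no filter (0.128). Ctsd was at 4046 ± 57.9 FPKM with si-Suclg2 and 4916 ± 175 FPKM with si-nc, and its call was lost with no filter (0.0803). Ctsz was at 914 ± 21.9 FPKM with si-Suclg2 and 1072 ± 41.7 FPKM with si-nc. Ctss, the main protease of the last invariant chain cut in dendritic cells, was at 5310 ± 367 FPKM with si-Suclg2 and 6304 ± 510 FPKM with si-nc (limma adjusted p = 0.0505, and 0.00338 with the replicate block). Sppl2a, the intramembrane protease that clears the invariant chain remnant, was at 77.4 ± 2.46 FPKM with si-Suclg2 and 65.9 ± 3.67 FPKM with si-nc (log2 fold change 0.23, limma adjusted p = 0.00686). Ctsl was at 245.0 FPKM with si-Suclg2 and 232.4 FPKM with si-nc (limma adjusted p = 0.465).

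Among 5 genes of class II ubiquitination and surface turnover, 2 rose, 2 fell and 1 did not pass, beside 12% of all genes higher and 14.9% lower (median -0.08). Marchf1, the ubiquitin ligase that sends class II to lysosomes, was at 36.15, 36.7, 36.5 and 36.85 FPKM in si-Suclg2 samples 1 to 4, against 29.3, 29.0, 29.4 and 29.4 FPKM in si-nc samples 1 to 4 (log2 fold change 0.31, limma adjusted p = 0.000212). Its samples lay within 1 FPKM of each other inside each group and did not show the division of the numbers. Cd83, whose product opposes Marchf1 and holds class II at the surface, was at 18.9, 18.2, 16.5 and 15.9 FPKM in si-Suclg2 samples 1 to 4, against 47.7, 47.8, 64.1 and 66.4 FPKM in si-nc samples 1 to 4 (log2 fold change -1.63, limma adjusted p = 1.57e-05). Its fall was larger in numbers 3 and 4 (interaction -0.63, limma adjusted p = 0.00435), the opposite of the order in the classical chains. Il10, a cytokine known to raise this ligase in human monocytes, was at 4.62 ± 0.698 FPKM with si-Suclg2 and 1.86 ± 0.245 FPKM with si-nc (SD, n = 4 each; log2 fold change 0.97, limma adjusted p = 0.000146). Ube2d1, a ubiquitin-conjugating enzyme that can act with Marchf1, was at 25.9 ± 0.680 FPKM with si-Suclg2 and 30.9 ± 0.725 FPKM with si-nc (limma adjusted p = 0.00167). The related ligase Marchf8 was at 16.4 FPKM with si-Suclg2 and 17.4 FPKM with si-nc (limma adjusted p = 0.199).

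**Figure D5:**
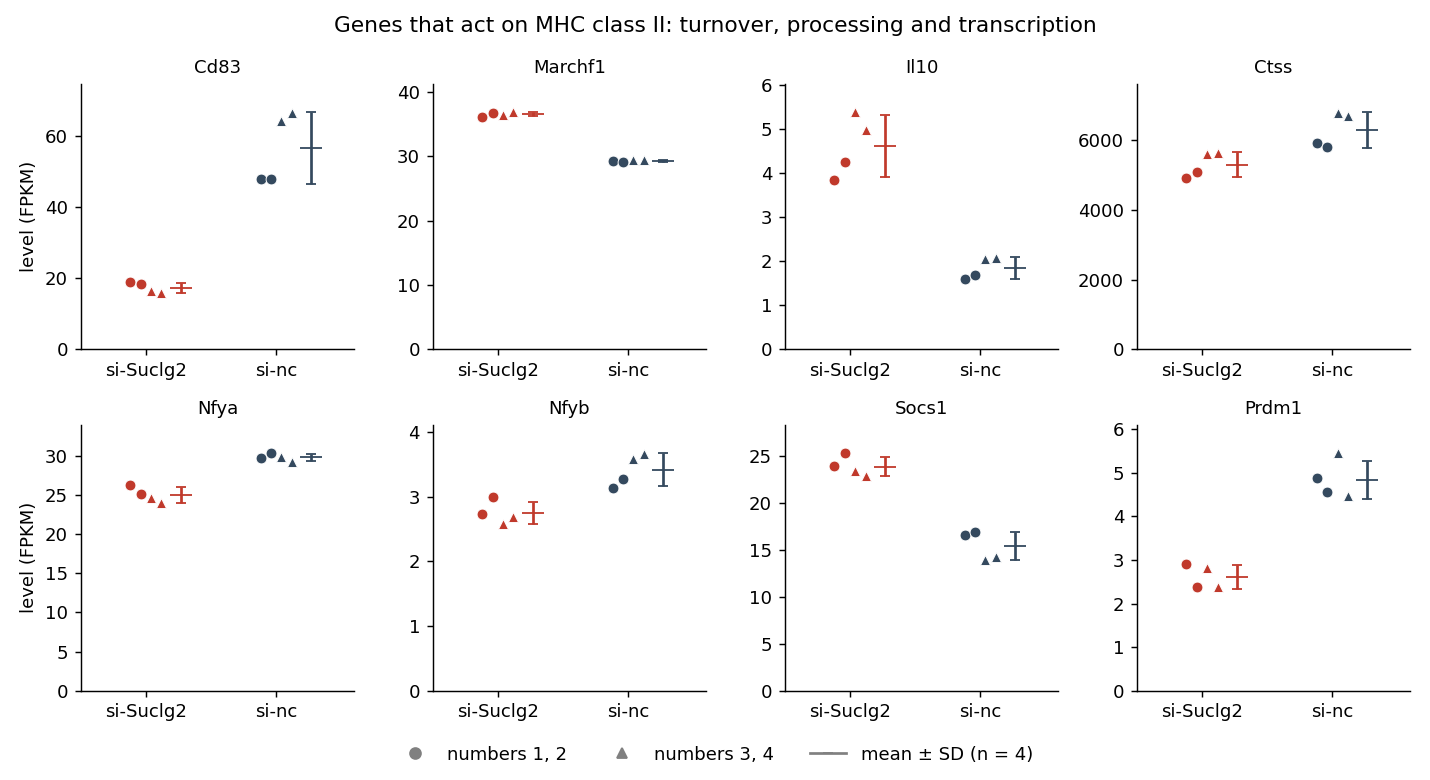
FPKM in each si-Suclg2 and si-nc sample of Cd83, Marchf1, Il10, Ctss, Nfya, Nfyb, Socs1 and Prdm1, which act on class II turnover, processing or transcription. Circles are numbers 1 and 2, triangles numbers 3 and 4, and bars the group mean and SD; Cd83, Nfya, Nfyb, Ctss and Prdm1 lie lower and Marchf1, Il10 and Socs1 higher in every si-Suclg2 sample than in any si-nc sample.

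Class I presentation, which has its own transactivator in Nlrc5, gave 2 of 9 genes higher, 2 lower and 5 not passing, beside 12% of all genes higher and 14.9% lower (median 0.06). With the replicate block 4 were higher, beside 18% of all genes. Besides Tap2 and Psmb9, Tapbp, the tapasin gene, was at 293.6 ± 12.8 FPKM with si-Suclg2 and 347.4 ± 6.53 FPKM with si-nc (SD, n = 4 each; log2 fold change -0.24, limma adjusted p = 0.00296). The heavy chain gene H2-D1 was at 3543 ± 116 FPKM with si-Suclg2 and 3990 ± 71.6 FPKM with si-nc (limma adjusted p = 0.0413), a call that was lost when any 1 of the 8 samples was left out (0.0618 to 0.106) and with trimmed-mean scaling (0.129). Nlrc5 was at 16.2 FPKM with si-Suclg2 and 14.4 FPKM with si-nc (limma adjusted p = 0.0501, and 0.0250 with the replicate block). The largest shift in the class I list was -0.24, against -0.98 for H2-Eb1.

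Markers of other cells moved beside the class II genes. Of the conventional dendritic cell markers, Itgax (CD11c, the gene of the bead selection) was at 12.6 FPKM with si-Suclg2 and 20.2 FPKM with si-nc (limma adjusted p = 0.00127). Clec10a was at 4.22, 4.05, 4.36 and 4.11 FPKM in si-Suclg2 samples 1 to 4, against 9.00, 8.19, 16.4 and 16.8 FPKM in si-nc samples 1 to 4 (limma adjusted p = 0.00141), with an interaction of -0.85 (limma adjusted p = 0.00739). Like Cd83, and unlike the classical chains, it differed more in numbers 3 and 4. Batf3 of the same list lay the other way, at 2.06 FPKM with si-Suclg2 and 1.21 FPKM with si-nc (limma adjusted p = 0.0675, and 0.00712 with the replicate block). Ccr7 did not pass over all samples (limma adjusted p = 0.560), but its direction differed between the sets of numbers. In numbers 1 and 2 Ccr7 was at 4.79 FPKM with si-Suclg2 and 3.645 FPKM with si-nc (limma adjusted p = 0.0123). In numbers 3 and 4 it was at 3.395 FPKM with si-Suclg2 and 5.685 FPKM with si-nc (limma adjusted p = 0.000807). The interaction for Ccr7 was -0.92 (limma adjusted p = 0.00743). Among macrophage markers 2 of 10 rose and 4 fell, beside 12% of all genes higher and 14.9% lower, and C1qa passed as higher with the replicate block (limma adjusted p = 0.361, and 0.0136 with the block). Adgre1 was at 596.7 FPKM with si-Suclg2 and 333.1 FPKM with si-nc, while Apoe was at 6433 FPKM with si-Suclg2 and 9883 FPKM with si-nc. Summed fibroblastic stroma markers were 7.07 to 16.04 FPKM in si-Suclg2 samples, against 8.64 to 21.3 FPKM in si-nc samples, and overlapped. Of 4 stroma markers tested 0 passed (limma; 1 lower and 0 higher at an unadjusted p under 0.05), with a median log2 fold change of -0.47. With the replicate block 3 were lower, beside 22.5% of all genes: Col1a1, Col1a2 and Col3a1 (limma adjusted p = 0.122, 0.145 and 0.235 without the block, and 0.006935, 0.0353 and 0.0163 with it). Col1a1 was at 5.40, 3.08, 2.25 and 2.13 FPKM in si-Suclg2 samples 1 to 4, against 6.94, 8.83, 3.02 and 4.64 FPKM in si-nc samples 1 to 4, lower in each si-Suclg2 sample than in the si-nc sample of the same number. Summed endothelial markers overlapped as well, at 21.1 to 30.7 FPKM in si-Suclg2 samples, against 20.5 to 28.8 FPKM in si-nc samples. The B cell list (13.6 to 14.7 FPKM in si-Suclg2 samples, against 16.1 to 21.6 FPKM in si-nc samples) was nearly all Cd22. The plasmacytoid dendritic cell list (1122 to 1308 FPKM in si-Suclg2 samples, against 1047 to 1095 FPKM in si-nc samples) was nearly all the interferon-induced gene Bst2, and summed T cell markers did not exceed 0.38 FPKM. The part of these markers in the class II differences was not tested.

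With the group difference removed, the mean log2 level of H2-Aa, H2-Ab1, H2-Eb1 and Cd74 varied across the 8 samples mostly between numbers 1 and 2 and numbers 3 and 4. The genes outside the class II pathway most like it were Pigx (Pearson r = 0.995), Rbm3 (0.993), Ifnar2 (0.991), Ddx39b (0.990) and Sdhb (0.990), out of 10043 compared. As a description, 196 genes reached r of 0.95, and the 8 points share the division of the numbers. Both the 196 and the 10043 include class II genes, among them the genes that make up the mean. Rbm3, a cold-inducible RNA-binding protein gene, was at 151.4, 151.9, 211.9 and 206.4 FPKM in si-Suclg2 samples 1 to 4, against 163.8, 165.6, 195.2 and 203.0 FPKM in si-nc samples 1 to 4. None of these 5 genes passed between groups (limma adjusted p = 0.0699 to 0.916). Of the loading genes, H2-DMb1 had r of 0.966, H2-DMa 0.893, H2-DMb2 0.831 and H2-Oa 0.594 with the same mean. In H2-DMb1, H2-DMa and H2-DMb2 numbers 3 and 4 lay above numbers 1 and 2 in both groups, as in the classical chains. In H2-Oa this held only with si-Suclg2. None of these loading genes passed between groups. No such list was made for Ciita.

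The authors' deposited table gives its own log2 fold changes, -0.80 for Cd74, -0.94 for H2-Aa, -0.55 for H2-Ab1 and -0.97 for H2-Eb1, with DEGseq q-values of 0 for Cd74, H2-Aa and H2-Eb1 as printed there. At a q under 0.05 the authors' deposited table has 4 of the 8 genes lower, beside 28.5% of its 15465 genes, and 1 higher, beside 19.1%. The 1 higher gene in the authors' deposited table is H2-DMb1, with a log2 fold change of 0.06 and q = 0.0120, whose samples overlapped between groups above.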

How the data were processed

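TRIzol-extracted RNA of 4 si-Suclg2 and 4 si-nc samples was run on an Illumina HiSeq, per the labels' protocols. The builds were GRCm38.p4 and mm10, per the submitters' processing notes, with aligner, counting tool and annotation not given in the sources used here. One table of 15465 rows was deposited by the authors. Its per-sample values carry no unit in the header and were treated as deposited FPKM, because they are not whole and sum to unequal totals. Its log2 fold changes and DEGseq p-values and q-values are the authors', per the file headers. Depth is not stated, so no counting intervals are given, and 22 gene symbols turned into dates were restored by gene ID.

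Genes with a mean of at least 1 FPKM in at least 1 group (10176) entered limma 3.58.1 (R 4.3.3), with a mean trend, on log2(FPKM + 1), which understates changes of low genes; p-values were Benjamini-Hochberg adjusted over all of them. Folds are si-Suclg2 relative to si-nc. For single genes and ratios, exact permutation tests were two-sided. The class II genes, the gene lists and the division of the numbers were chosen with earlier results of these data known. Named genes are the class II genes, Suclg2, the 5 most alike genes, and per list up to 4 that passed, by smallest p, and up to 2 that did not, of which 1 is not reported here; marker genes, the neighbours on chromosome 17 and ratios between chains were named besides. Same-numbered samples of the 2 groups deviated together (r = 0.405 to 0.553 across genes, each above 0.1), so the numbers were treated as pairs from the data, not the labels, and values with the replicate block are printed where calls of named genes changed; only 2 of 4 numbers matched their own number best. The fits were tested on simulated data. Other pseudocount, filter, scaling and sample choices were tried, 18 in all. Sequences were read with Python 3.11.15 and Biopython 1.88.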

Additional observations from a re-analysis of the deposited data

Results flagged for a closer look

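By a test of the interaction, the effect of si-Suclg2 differed between numbers 3 and 4 and numbers 1 and 2 in several named genes. On the log2 scale it was less negative in numbers 3 and 4 by 0.37 for H2-Aa, 0.46 for H2-Ab1 and 0.39 for H2-Eb1. It was more negative there for Cd83 (-0.63) and Clec10a (-0.85). For Ccr7 the interaction was -0.92 (limma adjusted p = 0.00743), with a log2 fold change of 0.32 in numbers 1 and 2 and -0.61 in numbers 3 and 4. On the FPKM scale the gaps of H2-Aa and H2-Eb1 were nearly equal in both sets of numbers. Of all genes, 0.609% passed in the less negative direction, and the share in the other direction was not counted. The division of the numbers was chosen with earlier results of these data known, so these interactions are not independent evidence.

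Among 104 groups of 4 values examined, 3 held a sample far from the other 3. How many chance alone would give was not tested, because the groups share samples and the division of the numbers. Ube2d1 in si-Suclg2 sample 4 was at 24.9 FPKM, the ratio of H2-Aa to H2-Eb1 in si-nc sample 4 was 2.97, and the ratio of H2-DMa to H2-DMb1 in si-Suclg2 sample 3 was 0.633.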

How the results depend on the processing

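H2-Aa, H2-Eb1 and Cd74 stayed lower past the threshold under each alternative tried except the means of number pairs as replicates, and H2-Ab1 was lower under each without always passing. With those means 0 class II genes, 149 of all genes lower and 130 higher passed. The replicate block gave 2294 genes lower and 1832 higher, and number pairs as a block 2539 lower and 1995 higher. H2-Ab1 passed with the replicate block (adjusted p = 0.00102), and in 2 of 8 fits that left out 1 sample. Besides H2-Ab1, the replicate block changed the calls of Ctss, Ifngr2, Nlrc5, Psmb8, Smarca4, Batf3, C1qa, Col1a1, Col1a2 and Col3a1 among the listed genes. Leaving out each sample gave 3 to 4 class II genes lower and 0 to 0 higher, 1171 to 1448 of all genes lower and 955 to 1175 higher. The fold change of Cd74 then ranged from -0.86 to -0.75, of H2-Aa from -1.09 to -0.84, of H2-Eb1 from -1.13 to -0.84 and of H2-Ab1 from -0.71 to -0.44. H2-DMa, never past the threshold, was below 0 without si-Suclg2 sample 3 or 4 or si-nc sample 1 or 2. The log2 ratio difference to the classical chains was 0.19 in numbers 1 and 2 and -0.11 in numbers 3 and 4 for Cd74, and 1.29 and 0.75 for H2-DMb2. Of 24 other genes chosen for naming with a call, 19 lost it with the means of number pairs. Depth is unknown, and 2 samples a group within the numbers limit what those fits can show.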
